A study of Oryza sativa with 81 samples.

Results

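The WFB-parent and RFB-parent rice hybrids compared here were seedlings of a 2 by 2 set of crosses, in which WFB or RFB had been crossed with R998 or R308. Young seedlings of WY998 (WFB with R998) and WY308 (WFB with R308) gave 6 libraries, and young seedlings of RY998 (RFB with R998) and RY308 (RFB with R308) gave the other 6, so that 12 of the 81 libraries of the series were members, chosen by the line and tissue on their labels. The 12 carried no treatment, and the plants were grown in a field. The hybrid WR (WFB with RFB) and the parents WFB, RFB, R998 and R308, with 3 seedling libraries each, served for reference, and the panicle libraries of the same hybrids were used for a repeat of the comparison in other tissues. The labels give no ploidy, age, sowing date or meaning for the line names, and nothing in them says that the 3 replicates of a line were separate plants, so that p-values cover the spread between libraries, which may be technical.

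A first-generation hybrid carries a chromosome set from each parent. WY998 and RY998 share the set from R998, and WY308 and RY308 share the set from R308. In chromosome sets, the members of each pair therefore differ by the one from WFB or from RFB. Which line was the seed parent of a cross was not used here, and an effect of it was not tested. Where a gene is active in a parent only through differences in its own copy, a hybrid is usually found between its parents, and where the difference acts through a diffusible factor the hybrid may match either parent. The comparison asks which seedling transcripts depend on WFB or RFB as a parent, whether they do so in both pairs of crosses, and how they relate to the difference between WFB and RFB themselves.

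The 12 libraries held 34322034 to 41061368 counts and detected 24548 to 25230 gene models. The libraries of a line differed by more than counting error, with a chi-square per degree of freedom of 5.56 to 96.1 over 12 pairs. The deposited identifiers were paired with no gene name in the sources used here, so that genes are given by identifier, without a function, and lists of pathway or cell type genes could not be read. The tissue label was checked with 271 genes that were at least 8-fold higher in seedlings than in both panicle stages of the 4 parental lines, and these took 40.8 to 52.3% of the counts of the 12 libraries, whereas their share in panicles of the same hybrids was 1.84 to 3.17% (young) and 3.87 to 7.07% (filling). Identifiers that start with block 00 (the 2 digits that follow G) took 43.8 to 56.1% of counts, and both extremes were WY998 libraries, replicate 1 and replicate 3. The share of the 271 genes was lowest and highest in these same libraries. In WY998 replicate 3 the 2 shares, 56.1% and 52.3%, add to more than the whole, so that the sets have genes in common. Their moving together is therefore partly built in, and the tissue check rests in part on block 00 identifiers.

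WFB or RFB as a parent accounted for a small share of the differences among the 12 libraries. Of the sum of squares of log2(CPM + 1), where CPM is the count per 1e6 counts of the scaled library total, 10.9% lay between WFB-parent and RFB-parent hybrids, 40.2% between R998 and R308 crosses, 7.09% in the interaction and 41.8% between libraries of a line. Per degree of freedom the WFB or RFB share was 10.9%, against 5.22% for libraries of a line. The first principal component, with 40.6% of the variance, separated the R998 crosses from the R308 crosses. A library correlated on average at 0.986 to 0.993 with its own line, and 6 of the 12 libraries correlated more closely with a library of another line than with their own line on average. This sets the highest of several correlations against a mean, which favours the other lines. The closest other line was always the one with the same R998 or R308 parent.

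Averaged over R998 and R308, 466 of 21813 genes tested (2.14%) differed between WFB-parent and RFB-parent hybrids at an adjusted p under 0.05, by edgeR's quasi-likelihood test with Benjamini-Hochberg adjustment. Of these, 157 (0.72% of genes tested) were higher in WFB-parent hybrids and 309 (1.42%) were lower. The changes were mostly modest, with a median log2 difference of 0.66 for the higher genes and -0.44 for the lower ones, against a median absolute difference of 0.10 over all genes tested. A 2-fold difference was reached by 48 of the higher and 39 of the lower genes. The 6 WFB-parent libraries did not overlap the 6 RFB-parent libraries for 202 of the 466 genes, against 302 of 21813 (1.38%) over all genes. Between R998 and R308 crosses the same 12 libraries gave 1646 genes (7.55%), of which 898 (4.12%) were higher in R998 crosses and 748 (3.43%) were lower.

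OsR498G0408431100.01 and OsR498G0611538400.01 were the genes with the largest increase among those of at least 5 CPM whose libraries did not overlap. OsR498G0408431100.01 was at 8.77, 6.86 and 5.09 CPM in WY998 and at 4.35, 3.69 and 3.42 CPM in WY308, against 2.90, 2.96 and 2.53 CPM in RY998 and 0, 0 and 0.0294 CPM in RY308. All 6 WFB-parent libraries were above all 6 RFB-parent libraries, and RY308 held a single count for this gene. The level was 2.49-fold higher in WY998 than in RY998 (95% counting interval 2.18 to 2.84), and the average difference had an edgeR adjusted p of 6.53e-10. The ratio of WY308 to RY308 was 418 with a counting interval of 74.7 to 16553, so that its size is poorly known.

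OsR498G0611538400.01 showed the same order of lines. It was at 15.3, 16.0 and 14.1 CPM in WY998 and at 7.35, 8.28 and 7.82 CPM in WY308, against 6.72, 6.88 and 6.44 CPM in RY998 and 0.131, 0.0532 and 0 CPM in RY308. The levels of WY308 and RY998 were near each other and lay between those of WY998 and RY308. The ratio was 2.26 in R998 crosses (counting interval 2.07 to 2.47) and 122 in R308 crosses (59.2 to 305), with an edgeR adjusted p of 7.33e-13 for the average. Among the parents WFB had 14.9 ± 0.492 CPM and R998 13.9 ± 2.11 CPM, and RFB had 0.0681 ± 0.0368 and R308 0.0438 ± 0.0389 CPM (SD, n = 3 each). The hybrid with both low parents was therefore the one at the bottom.

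The genes with the largest decrease under the same rule were OsR498G0102133700.01 and OsR498G0612763700.01. OsR498G0102133700.01 was at 0.124, 0.324 and 0.535 CPM in WY998 and at 0.127, 0.0814 and 0.0925 CPM in WY308, against 17.9, 14.6 and 16.7 CPM in RY998 and 13.9, 17.9 and 15.9 CPM in RY308. The RFB-parent libraries formed a narrow group far above the others, whichever the second parent was. The average log2 difference was -6.46 ± 0.33 (SE; edgeR adjusted p = 1.01e-11). RFB was the only one of the 4 parents with a high level, at 24.3 ± 2.34 CPM, against 0.419 ± 0.413 CPM in WFB (SD, n = 3 each). WR, which has RFB as a parent too, was at 12.2 ± 3.84 CPM (SD, n = 3).

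OsR498G0612763700.01 was at 3.21, 2.89 and 3.38 CPM in WY998 and at 2.06, 5.02 and 3.15 CPM in WY308, against 16.5, 19.2 and 13.3 CPM in RY998 and 7.09, 8.92 and 7.13 CPM in RY308. The 2 arms did not overlap, and RY998 stood above RY308. The average log2 difference was -1.78 ± 0.22 (SE; edgeR adjusted p = 3.22e-05). WFB and RFB differed by a log2 of -1.58 ± 0.33 (SE; edgeR adjusted p = 0.00941), at 1.58 to 2.73 CPM in WFB and 5.11 to 7.34 CPM in RFB. RFB was below every RY998 library, and the WR libraries were at 8.91 to 12.9 CPM, also above RFB.

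**Figure D1:**
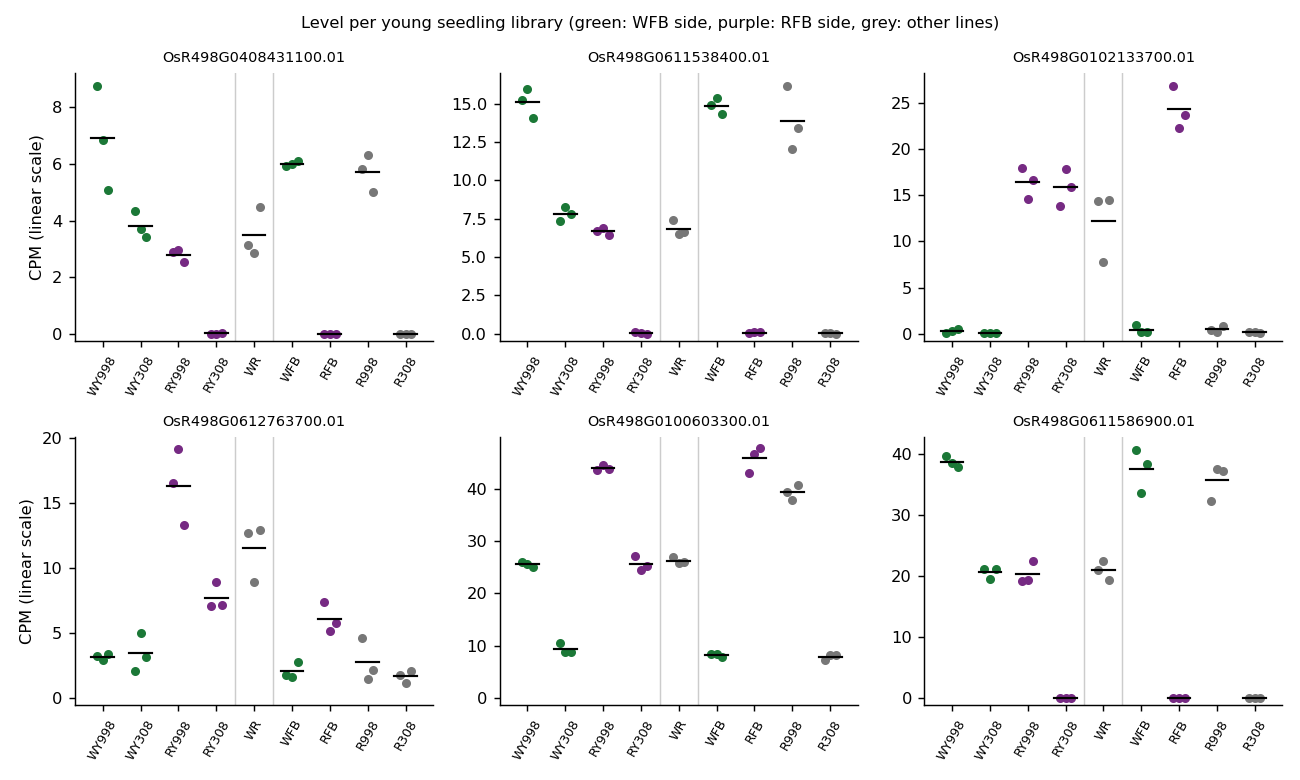
Level in CPM (linear axis) of 6 named genes in each of the 27 young seedling libraries, 3 per line, with points for libraries and black lines for line means; vertical lines separate the 4 hybrids, WR and the 4 parents. In the panels of OsR498G0408431100.01, OsR498G0611538400.01 and OsR498G0611586900.01 the RY308 points lie at or near 0, and in that of OsR498G0102133700.01 the RY998 and RY308 points lie at 13.9 to 17.9 CPM while WY998 and WY308 lie at or under 0.535 CPM.

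Within the crosses to R998, WY998 and RY998 differed in 276 genes (1.27%), of which 96 (0.44%) were higher and 180 (0.825%) lower in WY998. Within the crosses to R308, WY308 and RY308 differed in 94 genes (0.431%), of which 49 (0.225%) were higher and 45 (0.206%) lower in WY308. The genes called in both pairs numbered 49, which is 17.8% of the R998-cross calls and 52.1% of the R308-cross calls, and all 49 had the same sign. Of the 466 genes called on average, 183 were called in R998 crosses only, 40 in R308 crosses only, 49 in both and 194 in neither. The R998-cross count was not stable: it fell to 147 without WY998 replicate 1, 171 without WY998 replicate 3, 172 without RY998 replicate 1, 142 without RY998 replicate 2 and 178 without RY998 replicate 3. The R308-cross count was 62 without WY308 replicate 3.

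The direction was the same in both pairs of crosses for 463 of the 466 genes, against 54.5% of all genes tested, but the average from which they were called was made of these same 2 differences. Over all 21813 genes the difference in R998 crosses and that in R308 crosses, which share no library, correlated at r = 0.175 (rho = 0.144), given as a description across genes. Of the 309 genes lower in WFB-parent hybrids, 218 had the larger absolute log2 difference in R998 crosses. The corresponding share of all genes tested was not counted. Their median absolute log2 difference was also larger in R998 crosses, at 0.145, against 0.129 in R308 crosses. The 157 higher genes split into 81 with the larger log2 difference in R998 crosses and 76 with the larger in R308 crosses.

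OsR498G0306590900.01 and OsR498G0101908400.01 were higher in WY998 than in RY998 without a call in R308 crosses. OsR498G0306590900.01 was at 10.98, 7.92 and 7.29 CPM in WY998, against 3.10, 2.58 and 3.29 CPM in RY998, and at 7.42, 6.68 and 8.47 CPM in WY308, against 4.74, 6.92 and 4.12 CPM in RY308. The groups were apart in R998 crosses and overlapped in R308 crosses. The log2 difference was 1.55 ± 0.19 in R998 crosses (SE; edgeR adjusted p = 4.25e-05) and 0.52 ± 0.18 in R308 crosses (adjusted p = 0.393). The difference between these differences did not pass the test (edgeR adjusted p = 0.337), so that the gene was not shown to behave differently in the 2 pairs. For OsR498G0101908400.01, at 5.22, 4.81 and 7.71 CPM in WY998 and 2.71, 1.94 and 1.72 CPM in RY998, the edgeR adjusted p of 0.0422 lay close to the threshold, and leaving out any 1 of the 6 R998-cross libraries moved it to between 0.0519 and 0.192.

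Lower in WY998 than in RY998, without a call in R308 crosses, were OsR498G0612763700.01, given above, and OsR498G0613226800.01. OsR498G0613226800.01 was at 6.69, 9.35 and 4.95 CPM in WY998, against 27.9, 30.3 and 31.5 CPM in RY998. It was at 21.3, 31.0 and 30.6 CPM in WY308, against 52.6, 44.5 and 40.8 CPM in RY308. The libraries were apart in both pairs, and the log2 difference was -2.09 ± 0.33 (SE; edgeR adjusted p = 0.00101) in R998 crosses and -0.73 ± 0.31 (adjusted p = 0.529) in R308 crosses. Here too the 2 differences were not shown to differ (adjusted p = 0.802).

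In the crosses to R308, OsR498G0611623000.01 and OsR498G0613200500.01 were higher in WY308 without a call in R998 crosses, and both were also among the genes whose difference depended on the second parent. OsR498G0613200500.01 was at 7.60, 6.35 and 7.70 CPM in WY308, against 1.02, 0.506 and 1.27 CPM in RY308, and at 10.3, 13.6 and 10.4 CPM in WY998, against 6.38, 6.77 and 7.19 CPM in RY998. WFB-parent libraries were above RFB-parent libraries in each pair, by a log2 difference of 2.96 ± 0.28 in R308 crosses (SE; edgeR adjusted p = 6.16e-07) and 0.75 ± 0.24 in R998 crosses (adjusted p = 0.154). Lower in WY308 were OsR498G0612008200.01 and OsR498G0203415200.01. OsR498G0612008200.01 was at 18.3, 14.7 and 16.3 CPM in WY308, against 34.6, 45.7 and 38.1 CPM in RY308, a log2 difference of -1.26 ± 0.16 (SE; edgeR adjusted p = 7.65e-05). Its R998-cross difference of -0.62 ± 0.16 narrowly missed the threshold (adjusted p = 0.0509), with 49.9, 37.98 and 32.1 CPM in WY998 and 65.3, 54.5 and 65.0 CPM in RY998. OsR498G0203415200.01 was at 6.86, 7.46 and 6.01 CPM in WY308, against 11.98, 13.5 and 12.9 CPM in RY308, with an edgeR adjusted p of 0.00424, which was 0.0544 without WY308 replicate 3 and 0.142 in a fit of the 12 hybrid libraries alone.

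A test of the difference between the pairs of crosses, taken as that in R998 crosses minus that in R308 crosses, called 20 genes (0.0917%), of which 1 (0.00458%) was positive and 19 (0.0871%) were negative. All 20 were also called on average. In 15 of them the log2 difference was larger in R308 crosses, 14 genes were higher in WFB-parent hybrids, and 15 had identifiers of block 06. Parental levels divided these genes into few patterns, taking a line as on at 1 CPM or more and as off under 0.1 CPM. In 9 of them WFB and R998 were on and RFB and R308 off, and in 4 RFB and R308 were on and WFB and R998 off. In the first pattern RY308 was the hybrid without an active parent, and in the second it was WY998. The sign of the dependence was that given by the summed parental levels in 20 of 20 genes. The test was made on a log2 scale. On it summed levels give a dependence wherever WFB differs from RFB and R998 from R308, so that the count is a description only. Before adjustment, 1199 of 21813 genes had p under 0.05 in this test, against 2690 for the average. Where no gene differs, a threshold of 0.05 gives a count not far under 1199.

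**Figure D2:**
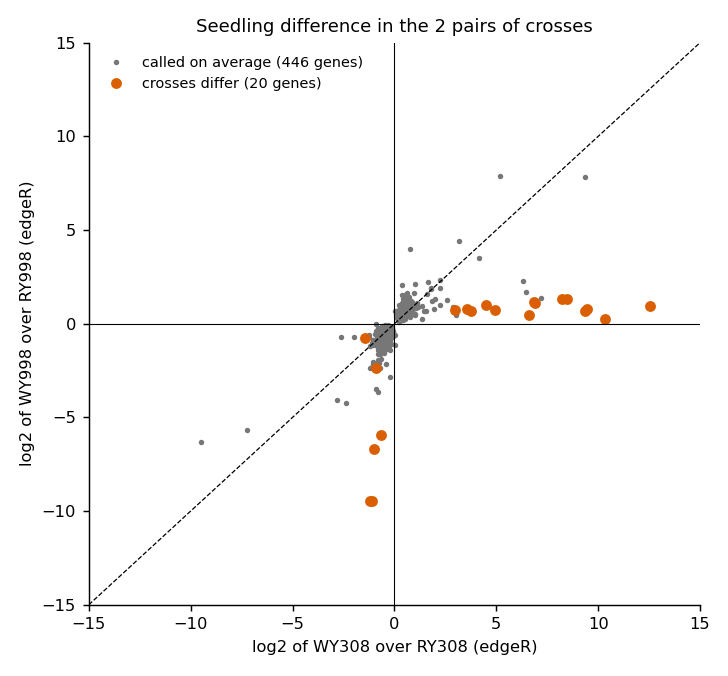
Fitted log2 difference of WY998 over RY998 (vertical axis) against that of WY308 over RY308 (horizontal axis) for the 466 genes called on average, with the 20 genes whose difference depended on the second parent in orange; the dashed line marks equal differences. Of the orange points, 15 have the larger log2 difference in R308 crosses, and fitted values of genes near 0 counts in a line depend on the prior count used in the fit.

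OsR498G0611586900.01 had the most negative dependence on the second parent. It was at 39.5, 38.4 and 37.8 CPM in WY998 and 19.2, 19.3 and 22.4 CPM in RY998, a log2 difference of 0.93 ± 0.11 (SE; edgeR adjusted p = 4.25e-05). It was at 21.2, 19.5 and 21.2 CPM in WY308, while no count was found in the 3 RY308 libraries, so that WY308 was at least 756-fold higher (floor of 3 counts over the group). WY308 and RY998 were level with each other and with WR, at 19.2 to 22.4 CPM over the 3 lines. The parents were at 37.5 ± 3.60 CPM in WFB and 35.7 ± 2.97 CPM in R998, against 0.0104 ± 0.0180 CPM in RFB and 0.00824 ± 0.0143 CPM in R308 (SD, n = 3 each), and the edgeR adjusted p of the dependence was 6.52e-14. The hybrid with 2 high parents was the highest of the 4 and the one with none the lowest.

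OsR498G0611623000.01 was the gene with the second most negative dependence (edgeR adjusted p = 1.3e-12). It was at 13.9, 19.1 and 16.7 CPM in WY308, against 0, 0 and 0.0294 CPM in RY308, a ratio of 1810 with a counting interval of 324 to 71514. In R998 crosses it was at 25.8, 33.0 and 32.3 CPM in WY998 and 24.7, 27.2 and 23.7 CPM in RY998. The R998-cross libraries overlapped and the difference did not pass the test (log2 0.27 ± 0.13, SE; edgeR adjusted p = 0.487), where summed parental levels gave 0.79. WFB was at 22.8 to 25.6 CPM and R998 at 27.8 to 38.03 CPM, and RFB had no count.

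OsR498G0100603300.01 was the only gene with a positive value of this test (log2 0.68 ± 0.10, SE; edgeR adjusted p = 0.000808), and it was expressed in all 4 hybrids. It was at 26.1, 25.6 and 25.1 CPM in WY998, against 43.6, 44.6 and 43.8 CPM in RY998, and at 10.4, 8.77 and 8.72 CPM in WY308, against 27.2, 24.5 and 25.3 CPM in RY308. WY998 and RY308 were level, and the replicates of each line were close together. The ratio was 0.582 in R998 crosses (counting interval 0.556 to 0.609) and 0.361 in R308 crosses (0.337 to 0.388). RFB and R998 were the high parents, at 43.0 to 47.9 and 37.8 to 40.8 CPM, and WFB and R308 the low ones, at 7.76 to 8.46 and 7.24 to 8.21 CPM.

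The hybrid difference was then set beside the difference between WFB and RFB, which was measured in other libraries. WFB and RFB seedlings differed in 393 genes (1.8%), 182 of them (0.834%) higher and 211 (0.967%) lower in WFB. Of these, 190 were also called between the hybrids, which is 40.8% of the hybrid calls and 48.3% of the parental calls, and the sign was the same in 190 of 190, with 88 higher and 102 lower. The sign was also the same in the parents for 239 of the 276 genes called between hybrids only, and in the hybrids for 192 of the 203 genes called between parents only, against 63.4% of all genes tested. The parental count was 258 without WFB replicate 1.

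The size of the hybrid difference was near that obtained by adding the mean CPM of the 2 parents of each hybrid, with 0.02 CPM added, and taking the log2 ratio of the sums. Over the 393 genes called between WFB and RFB, the median hybrid difference in the expected direction was 0.48, against 0.52 expected (log2), and observed and expected values correlated at r = 0.93 with a slope of 0.94, as a description across genes. The slope was 0.84 in R998 crosses and 1.06 in R308 crosses. These genes were selected on the WFB and RFB libraries that also give the expected values, which can raise the expected size. For the 88 genes with an expected difference of at least 2-fold the medians were 1.75 observed and 1.72 expected, and all 88 had the expected sign. For the 276 genes called between hybrids only, which were selected on the observed difference, the medians were 0.37 observed and 0.12 expected.

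**Figure D3:**
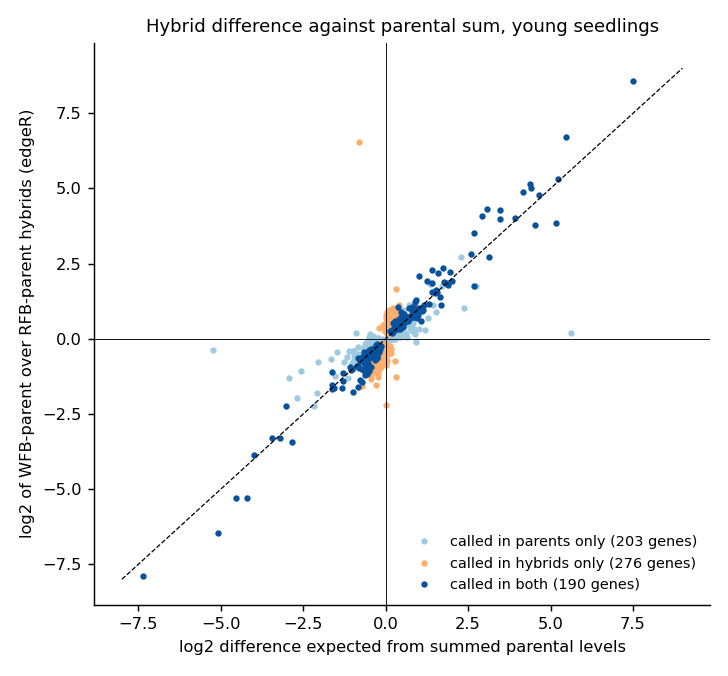
Fitted log2 difference between WFB-parent and RFB-parent hybrids (vertical axis) against the log2 difference expected from summed parental levels (horizontal axis) for genes called in hybrids, parents or both; the dashed line marks equality. The 190 genes called in both lie along the line, and most of the 276 genes called in hybrids only have an expected difference near 0.

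Genes with expression in WFB or RFB alone were then followed into the hybrids. With on set at 5 CPM or more and off under 0.1 CPM for this purpose, 8 genes were on in WFB and off in RFB, and 4 were on in RFB and off in WFB. For 4 of the 8, R998 was on and R308 off, and the median level as a share of that in WFB was 1.09 in WY998 and 0.592 in WY308, against 0.503 in RY998 and 0.00102 in RY308. For the other 4, R998 and R308 were both on, and the median share was 1.07 in WY998 and 1.04 in WY308, against 0.538 in RY998 and 0.609 in RY308. WR, with WFB as its only active parent, was at 0.569 and 0.582 in these sets. At 20 CPM in place of 5 the numbers were 3 and 0 genes.

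Among genes on in RFB and off in WFB, OsR498G0714841800.01 and OsR498G0204888400.01 had the largest parental decrease under the naming rule. OsR498G0714841800.01 had no count in WFB, against 16.6, 17.1 and 16.9 CPM in RFB, and was at least 555-fold lower in WFB. It was at 2.16, 2.19 and 1.44 CPM in WY998, against 9.75, 9.46 and 10.5 CPM in RY998, and at 12.4, 9.04 and 10.9 CPM in WY308, against 18.2, 19.9 and 22.5 CPM in RY308. WY998 was the lowest and RY308 the highest line, with WY308 and RY998 overlapping. The log2 difference between hybrids was -2.36 ± 0.20 in R998 crosses and -0.91 ± 0.17 in R308 crosses (SE; edgeR adjusted p = 4.7e-07 and 0.0148). OsR498G0204888400.01 had no count in WY998 or in WFB and R998, and was at 2.26, 2.37 and 2.74 CPM in RY998, 2.39, 1.98 and 2.45 CPM in WY308 and 5.78, 4.77 and 4.92 CPM in RY308. WY998 was at least 91.8-fold lower than RY998. WY308 was at a ratio of 0.443 to RY308, with a counting interval of 0.382 to 0.512.

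The 276 genes called between hybrids and not between parents showed a particular placement against the mid-parent, the mean CPM of a hybrid's own 2 parents. Of the 276, 117 (42.39%) had an unadjusted edgeR p under 0.05 between WFB and RFB, 113 of them with the hybrid sign. Over all genes tested 2369 of 21813 had such a p. A missing call between parents therefore does not show that WFB and RFB were equal for these genes. In the 207 of them that were lower in WFB-parent hybrids, the median log2 ratio to the mid-parent was 0.00 in WY998 and 0.07 in WY308, against 0.34 in RY998 and 0.29 in RY308. The number of these genes above the mid-parent was 105 in WY998 and 141 in WY308, against 202 in RY998 and 199 in RY308. In the 69 that were higher in WFB-parent hybrids, the medians were -0.13 in WY998 and -0.22 in WY308, against -0.67 in RY998 and -0.47 in RY308. In both directions the RFB-parent hybrids lay farther from the mid-parent than the WFB-parent hybrids. The genes were selected on these hybrid libraries, so that no test was made of it.

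WR was not used in that selection, though its mid-parent shares the WFB and RFB libraries with the others. It lay 0.37 above the mid-parent in the median of the 207 genes, with 191 of 207 above, and 0.80 below it in the median of the 69 genes, with 3 of 69 above. Over all 21813 genes tested the WR median was 0.01. The genes that were also called between parents stayed nearer, with a median for WR of 0.17 in the 102 lower and -0.06 in the 88 higher genes. In the 190 genes called in hybrids and parents WR lay between WFB and RFB in 135, above both in 38 and below both in 17. Over all 466 genes called in hybrids it lay between them in 154, and above or below both in most of the rest. No such count was made over all genes tested. Where WFB and RFB are close, the spread between libraries can by itself place WR outside both. The counts for the 190 and the 466 genes are therefore a description only.

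**Figure D4:**
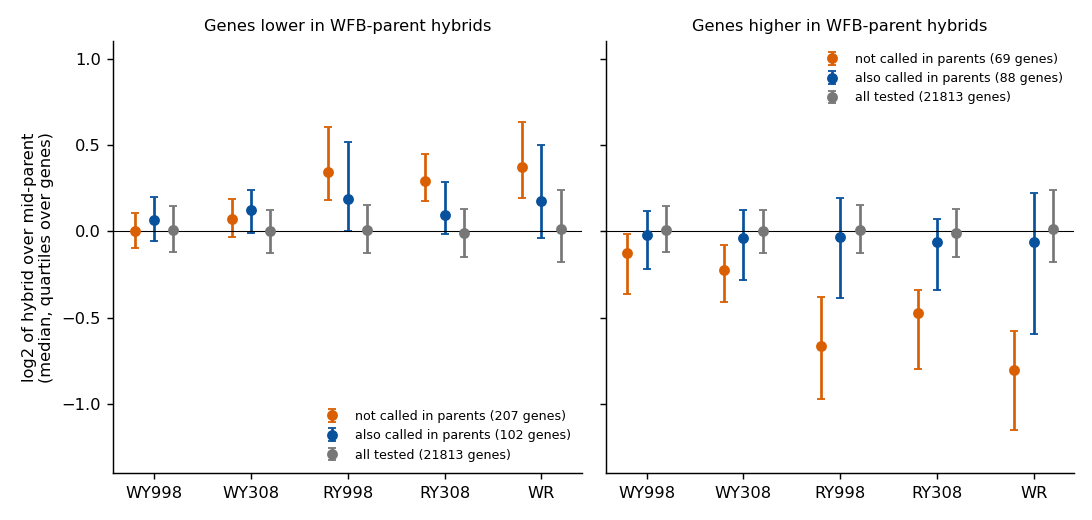
Median over genes of the log2 ratio of each hybrid to the mean of its parents, with bars for the quartiles, for genes lower (left) and higher (right) in WFB-parent hybrids; orange marks genes not called between WFB and RFB, blue those also called between them and grey all genes tested. Orange medians are 0.00 and 0.07 in WY998 and WY308 and 0.29 to 0.37 in RY998, RY308 and WR on the left, and -0.13 and -0.22 in WY998 and WY308 and -0.47 to -0.80 in RY998, RY308 and WR on the right.

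OsR498G0100103600.01 and OsR498G1119403300.01 led the increases among genes not called between parents. OsR498G1119403300.01 was at 22.5, 22.0 and 31.0 CPM in WY998 and 18.8, 14.7 and 20.8 CPM in WY308, against 9.45, 10.2 and 13.3 CPM in RY998 and 11.96, 12.5 and 11.01 CPM in RY308, a log2 difference of 0.90 ± 0.15 (SE; edgeR adjusted p = 0.00117). The arms did not overlap, whereas WFB, at 24.2 to 35.2 CPM, overlapped RFB, at 23.1 to 32.1 CPM. RY998 and RY308 were thus below RFB and below the 14.9 to 24.1 CPM of R998 and R308. OsR498G0100103600.01 was at 5.67, 6.51 and 5.12 CPM in WY998 and 5.95, 7.76 and 5.34 CPM in WY308, against 2.22, 2.63 and 4.19 CPM in RY998 and 4.19, 2.53 and 2.86 CPM in RY308. Its log2 difference was 0.97 ± 0.21 (SE; edgeR adjusted p = 0.0115), and neither pair of crosses passed the test on its own.

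OsR498G0816548900.01 and OsR498G0816581200.01 led the decreases among genes not called between parents. OsR498G0816581200.01 was at 4.42, 3.73 and 3.55 CPM in WY998 and 3.30, 4.59 and 3.56 CPM in WY308, against 11.7, 14.0 and 10.6 CPM in RY998 and 6.25, 6.63 and 5.71 CPM in RY308, a log2 difference of -1.17 ± 0.10 (SE; edgeR adjusted p = 1.29e-07). It passed in each pair of crosses, and the RY998 libraries were above those of the other 3 hybrids of the set. All 4 parents were low, from 2.92 to 5.77 CPM, and WR was at 8.66 to 11.2 CPM. OsR498G0816548900.01 was at 5.14, 5.86 and 7.26 CPM in WY998 and 7.47, 7.14 and 5.44 CPM in WY308, against 25.8, 32.9 and 16.5 CPM in RY998 and 13.8, 14.7 and 13.6 CPM in RY308, a log2 difference of -1.56 ± 0.27 (SE; edgeR adjusted p = 0.00186). The spread within RY998 was wide, and its lowest library was still above every WFB-parent library. The parents differed in the same direction without a call (log2 -1.44 ± 0.40, SE; edgeR adjusted p = 0.0746).

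The calls were spread unevenly over the identifiers. Block 06 held 102 called genes of 1804 tested (5.65%), 51 higher and 51 lower, against 364 of 20009 (1.82%) in the other blocks, 106 higher and 258 lower. The share in each other block was 1.23 to 3.16%. In block 06, 89 of the 102 genes (87.3%) were also called between WFB and RFB, against 101 of 364 (27.7%) elsewhere, and the median absolute log2 difference was 0.80, against 0.47. Between WFB and RFB themselves 141 genes of block 06 (7.82%) were called. No chromosome is given for the blocks in the sources used here.

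Within block 06 the called genes lay close together in identifier order. In windows of 100 successive tested genes, leaving out 3 short windows at block ends with under 20 genes each, the median of 222 windows was 1.5 called genes, and 41 windows held none. A window held 10 or more in 5 cases, of which 4 were in block 06, with 15, 20, 14 and 10 called genes, and 1 was in block 02, with 10. The windows with 15, 20 and 14 followed each other.

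**Figure D5:**
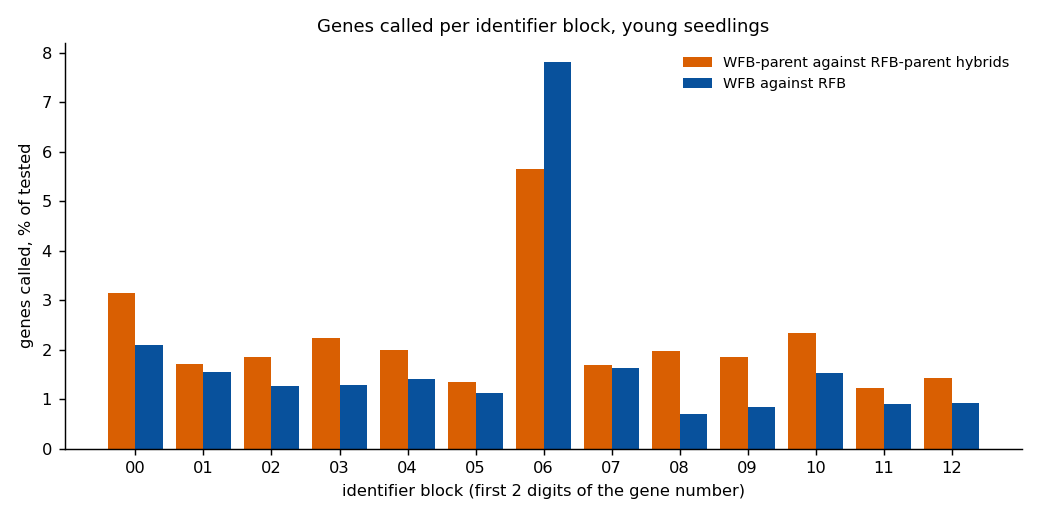
Share of tested genes called (vertical axis, percent, starting at 0) in each identifier block (horizontal axis) between WFB-parent and RFB-parent hybrids (orange) and between WFB and RFB (blue) in young seedlings. Block 06 stands at 5.65 and 7.82%, above every other block in both comparisons.

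The same contrast in the panicles of these hybrids, in separate libraries, called 4983 genes (20.1% of 24748 tested) in young panicles and 92 (0.363% of 25336) in filling panicles. Of the 466 seedling genes, 444 were tested in young panicles, where 151 were called with the seedling sign and 41 with the opposite sign. Of all genes tested in both tissues, 12.6% were called in young panicles with the seedling sign and 8.79% with the opposite sign, so that the opposite calls, at 9.23% of the 444, were near the share of all genes. In filling panicles 458 were tested, and 47 were called with the seedling sign and 0 with the opposite sign, against 0.334% of all genes. Differences between tissues were not tested.

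The genes that carried over in the average comparison were mainly those also called between WFB and RFB seedlings. In filling panicles, 46 of 187 such genes (24.6%) were called with the seedling sign, against 1 of 271 genes (0.369%) called between seedlings of the hybrids only. The share of all genes tested in both tissues was 0.334%, so that the hybrid-only genes were near it. Of these hybrid-only genes 51.3% had the seedling sign there, against 51.1% of all genes. The average does not show differences that were opposed in the pairs of crosses. In filling panicles 5526 genes were called for the dependence on the second parent, against 92 on average. A missing average call there therefore does not show that a gene was level within each pair. In young panicles the numbers were 106 of 177 (59.89%) and 45 of 267 (16.85%), against 12.62% of all genes. Of the 42 genes called with the seedling sign in both panicle stages, 30 were higher in WFB-parent hybrids, 26 were in block 06 and 41 were also called between the parents. OsR498G0611538400.01 was such a gene, at 40.7 ± 13.7 CPM in WFB-parent and 12.98 ± 14.0 CPM in RFB-parent young panicles, and at 18.6 ± 6.91 and 7.61 ± 5.38 CPM in WFB-parent and RFB-parent filling panicles (SD, n = 6 each; edgeR adjusted p = 2.11e-15 and 1.05e-07). The gene with the lowest hybrid-only p among those named, OsR498G0816581200.01, was at 36.3 ± 4.25 CPM in WFB-parent and 31.7 ± 9.01 CPM in RFB-parent young panicles and was not called there (edgeR adjusted p = 0.307).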

How the data were processed

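Total RNA depleted of ribosomal RNA was made into stranded libraries, per the labels' protocols, and HISAT2 is named in the submitters' processing notes. No version, counter, build or annotation is given in the sources used here. Raw counts were deposited by the authors for 38714 gene models, together with FPKM values, and the deposited FPKM values were used for nothing printed here. Lines and tissues were taken from the labels. The identifiers matched 0 of 39387 genes of the RefSeq table at hand (assembly ASM3414082v1), so that no names, sequences or gene lists could be read.

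Counts of the 27 seedling libraries were fitted with edgeR 4.0.16 (R 4.3.3), with TMM scaling, filterByExpr by line (21813 genes kept) and 1 mean per line, and tested two-sided with glmQLFTest and Benjamini-Hochberg adjustment at 0.05. The SE of a log2 difference was calculated from the test, as its absolute value over the square root of the F statistic. Panicle libraries were fitted alike, per stage. CPM are counts per 1e6 of the TMM-scaled totals. A group at 0 was set to a floor of 3 counts over the group. Intervals are 95% exact counting intervals of summed counts, and intervals and floors cover counting error only. The script was tested on simulated data. Comparing libraries by replicate number, 4 of 18 same-number pairs had deviations correlated over 0.1, so that the numbers were not taken to pair libraries.

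Named genes had an adjusted p under 0.05, at least 5 CPM in the higher arm and, except for the dependence on the second parent, libraries that did not overlap. At most 2 identifiers per direction and comparison were taken, by size of the difference. The members, gene lists and rules were chosen with earlier results of these data known. Alternatives were DESeq2 1.42.0, DESeq2 size factors, removal of block 00, no filter on low counts, the 12 libraries alone, a replicate block and leaving out each library.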

Additional observations from a re-analysis of the deposited data

Results flagged for a closer look

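The difference between WFB-parent and RFB-parent hybrids itself differed between R998 and R308 crosses for 20 genes by edgeR's interaction test with Benjamini-Hochberg adjustment, and 8 of them are named in the text. The larger log2 difference was in R308 crosses for OsR498G0611586900.01 (adjusted p = 6.52e-14), OsR498G0611623000.01 (1.3e-12), OsR498G0611538400.01 (3.77e-09), OsR498G0408431100.01 (7.73e-07), OsR498G0100603300.01 (0.000808) and OsR498G0613200500.01 (0.00531). It was in R998 crosses for OsR498G0204888400.01 (adjusted p = 3.76e-07) and OsR498G0714841800.01 (0.0232). In CPM the order held for some of these genes, such as OsR498G0611623000.01, and was reversed for others. OsR498G0100603300.01 had means of 25.6 CPM in WY998 and 44 CPM in RY998, against 9.29 CPM in WY308 and 25.7 CPM in RY308. Its difference in CPM was thus the larger in R998 crosses. In 5 of the 8 genes at least 1 of the 4 hybrids held fewer than 10 counts in total, and there the fitted size depends on the prior count.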

How the results depend on the processing

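With DESeq2 in place of edgeR the average comparison called 731 genes (266 higher, 465 lower), 463 of them among the 466. DESeq2 called 477 genes in R998 crosses, 180 in R308 crosses, 33 for the dependence on the second parent, 591 between WFB and RFB and 163 in filling panicles. In R308 crosses DESeq2 turned the balance to 72 higher and 108 lower, against 49 and 45, so that balance depends on the tool. The 12 hybrid libraries of filling panicles alone gave 56 genes there. Other scalings, no filter and the 12 seedling libraries alone gave 401 to 456 genes on average. Replicate numbers did not pair the libraries, and a replicate block gave 416 genes on average, 246 in R998 crosses, 87 in R308 crosses, 21 for the dependence and 360 between WFB and RFB. Leaving out 1 library gave 314 to 456 genes on average, with the lowest count without WY308 replicate 1 or replicate 3. It gave 142 to 282 in R998 crosses, 62 to 105 in R308 crosses, 18 to 23 for the dependence, 258 to 411 between WFB and RFB, 1413 to 1692 between R998 and R308 crosses, 3741 to 5377 in young panicles and 58 (without RY998 replicate 9 or RY308 replicate 7) to 195 (without RY308 replicate 9) in filling panicles. No shared call changed sign in any of these fits. Of 388 values of the 19 named genes, lists included, 374 kept their side of the threshold and 0 changed sign. For OsR498G0101908400.01 the call was lost under 10 settings, namely without any 1 of the 6 R998-cross libraries, with the replicate block (adjusted p = 0.0652) and without WY308 replicate 3 (0.0552), RY308 replicate 1 (0.0501) or RY308 replicate 2 (0.0522). For OsR498G0203415200.01 it was lost under 2, both given above. Depth limits the size of ratios for lines with few counts, and 3 libraries per line limit the small differences that make up most calls.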

Other observations

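In filling panicles the pairs of crosses went apart, with 2538 genes called between WY998 and RY998, 3646 between WY308 and RY308 and 5526 for the dependence on the second parent, beside the 92 called on average. In young panicles WY998 and RY998 differed in 95 genes and WY308 and RY308 in 7012, so that the average there rests mostly on R308 crosses. Whether stage or sampling moved with the lines was not tested. One of the 4 genes counted as on in RFB and off in WFB, OsR498G0306852400.01, reached 16.6 CPM in 1 RFB library and 0.141 and 0.249 CPM in the other 2, and was at 0.124 CPM in WY998 and 0.131 CPM in WY308, against 0.0440 CPM in RY998 and 0.110 CPM in RY308; it was singled out after its values were seen.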
